A study of Mus musculus with 4 samples.

Results

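NuRD and CoREST are multiprotein complexes that remove acetyl groups from histones, and 10 genes encoding their subunits were examined here out of 21883 protein-coding genes on the assembled mouse chromosomes. The list was chosen by what earlier results of these lists showed: peaks at Mbd3 and Hmg20b stand among the deposited regions enriched in wild-type cells, and their fold and rank were known. The genes, taken by name, are Mbd3, Mbd2, Chd4, Hdac1, Hdac2, Mta1, Mta2 and Gatad2a for NuRD, and Hmg20b and Rcor1 for CoREST, which also contains the products of Hdac1 and Hdac2. For each gene, peaks were collected whose summit lay inside the RefSeq gene span or within 50 kb of it. The assay was ATAC-seq, which tags accessible DNA with a transposase, and the cells were 10T1/2, a line of mouse embryonic fibroblasts. There were 2 libraries of wild-type cells and 2 of cells in which Ranbp2, a nucleoporin with SUMO ligase activity, had been disrupted with CRISPR-Cas9. Per the design text the knockout cells are 1 clone grown from a single sorted cell and made with a single guide, so any property of that clone goes with the genotype. The labels do not say whether replicates were separate cultures.

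NuRD joins an ATP-dependent chromatin remodeller, Chd4, to the deacetylases Hdac1 and Hdac2. Mta1 and Mta2 are scaffolds that hold the deacetylases, Gatad2a links the remodeller to the rest, and Mbd2 and Mbd3 are alternative subunits of the methyl-CpG-binding domain family, of which Mbd2 binds methylated DNA. CoREST joins the same deacetylases to the histone demethylase Kdm1a through the scaffold Rcor1, with the HMG-box protein Hmg20b as a further subunit. Both complexes are best known for repressing transcription and for their part in lineage choice.

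The 4 promoters below are shown because they carry the strongest start-site peaks among the genes with a sequence in the RefSeq promoter table, and because 2 of them, those of Mbd3 and Hmg20b, overlap regions that the authors' deposited table lists as enriched in wild-type cells. Each is the 250 bases before the start site (RefSeq, GRCm38.p6, the same primary coordinates as mm10), written 5′ to 3′ on the strand of the gene. Capitals mark matches on either strand to GGGCGG, the GC box of Sp and Klf factors, to CCAAT, the NF-Y box, and to TATAAA, the TATA box.
Mbd3, chr10:80399532-80399781, minus strand: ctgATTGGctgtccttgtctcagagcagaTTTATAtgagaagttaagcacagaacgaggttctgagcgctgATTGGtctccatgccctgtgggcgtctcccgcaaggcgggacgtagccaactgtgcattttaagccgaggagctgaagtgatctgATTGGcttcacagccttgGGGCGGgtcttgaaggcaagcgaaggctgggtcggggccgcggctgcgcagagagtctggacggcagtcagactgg
Hmg20b, chr10:81350458-81350707, minus strand: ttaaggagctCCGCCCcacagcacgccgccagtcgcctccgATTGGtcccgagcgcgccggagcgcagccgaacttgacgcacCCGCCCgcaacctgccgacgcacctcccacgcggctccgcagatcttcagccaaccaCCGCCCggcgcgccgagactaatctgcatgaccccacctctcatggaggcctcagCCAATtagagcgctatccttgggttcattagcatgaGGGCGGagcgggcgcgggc
Rcor1, chr12:111039117-111039366, plus strand: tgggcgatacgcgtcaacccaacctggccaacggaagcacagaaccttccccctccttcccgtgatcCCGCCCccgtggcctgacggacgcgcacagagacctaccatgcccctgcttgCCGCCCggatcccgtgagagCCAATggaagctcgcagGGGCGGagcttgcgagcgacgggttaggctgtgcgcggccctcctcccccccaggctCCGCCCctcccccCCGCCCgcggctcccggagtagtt
Gatad2a, chr8:69996385-69996634, minus strand: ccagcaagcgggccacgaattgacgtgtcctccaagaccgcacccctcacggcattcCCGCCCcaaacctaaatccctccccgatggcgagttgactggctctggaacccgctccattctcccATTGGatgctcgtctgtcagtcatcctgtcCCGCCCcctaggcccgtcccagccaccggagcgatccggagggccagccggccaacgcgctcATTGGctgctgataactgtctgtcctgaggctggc
In these letters Mbd3 had 3 CCAAT matches, lying 247, 179 and 94 bases before the start counted from the first base of each match, with a TATA match at 221 and a GC box at 76. Hmg20b had 4 GC boxes and 2 CCAAT matches, Rcor1 had 5 GC boxes and 1 CCAAT match, and Gatad2a had 2 of each. The RefSeq span of Hmg20b reaches beyond this start site, so its printed stretch lies inside the span.

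All 8 members with a promoter in the table had a GC box, which 42.7% of 17491 protein-coding promoters of the same length hold, and 65.3% of the 5031 promoters of genes with a start-site peak in all 4 libraries. A CCAAT match was present in the 4 promoters shown and in none of the other 4, Chd4, Hdac2, Mta1 and Mta2. Its share was 36.5% of all promoters and 44.9% of those open in all 4 libraries. This split was noticed after the peak values had been seen. Mbd3 was the only member with a TATA match, on the opposite strand, and Mta2 the only one with CCGGAAGT, an ETS site. Their shares were 12.4% and 3.82% of all promoters, and 4.71% and 8.17% of those open in all 4 libraries. No member matched TGACGTCA (CRE), CACGTG (E-box) or TGANTCA (AP-1). These were held by 1.98%, 6.65% and 6.18% of all promoters, and by 3.58%, 9.28% and 3.58% of the open ones. Nor did any match the longer NRF1, YY1 and ZBTB33 motifs. Those were held by 5.32%, 0.252% and 0.6% of all promoters, and by 11.1%, 0.596% and 1.45% of the open ones. The GC content of the 8 windows ran from 54.0% in Chd4 to 80.8% in Mta1, against a median of 55.2% over all promoters and 60.8% over those open in all 4 libraries. Mta1, the most GC-rich, was also the only member with no start-site peak. Mbd2 and Hdac1 were not matched in the table.

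Wild-type replicates 1 and 2 had lists of 33721 and 18511 peaks, and knockout replicates 1 and 2 of 13877 and 24292. Overlapping peaks were joined into 39137 merged regions, and the 10977 found in every list are called common regions. Start-site peaks were found at 11, 8, 5 and 6 of 12 mesenchymal marker genes in the same order of libraries, with Col1a2, Vim, Fn1, Lox and S100a4 open in all 4 and Pdgfra in none. No epithelial (6), endothelial (4) or pluripotent (3) marker had one in any library, and of 5 immune and 4 neural markers only Spi1 and Tubb3 had one, in wild-type replicate 1. Depth is unknown because peak lists carry no reads, and a gene missing from a short list may lie below its threshold.

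Most of the 10 genes had open chromatin at the start site in both genotypes. A start-site peak, one with its summit within 1 kb of an annotated start, was present for 9 and 7 genes in wild-type and for 8 and 9 in knockout replicates 1 and 2. Over all protein-coding genes the shares were 43.9% and 35.8%, and 28.5% and 37.5%. Mbd3, Mbd2, Hdac1, Mta2, Gatad2a, Hmg20b and Rcor1 were open in all 4 libraries, which 27.4% of protein-coding genes were. The remaining genes were Hdac2 with a peak in 3 libraries, Chd4 in 2 and Mta1 in 0, as were 55.3% of protein-coding genes. For Mbd2 and Hdac1 the table gives no start, so a peak at either end of the gene span was taken.

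The authors' caller gave each peak a fold, its enrichment at the summit over local background. Folds of different lists are not on 1 scale: over common regions the median was 13.6 and 11.2 for wild type and 7.97 and 10.1 for knockout. Both knockout folds lay below both wild-type folds in 64.1% of common regions (above them in 2.28%) and in 4 of the 7 members open in all lists (Mbd3, Hdac1, Gatad2a and Rcor1). Each library was therefore also ranked on its own over the 10977 common regions, from 0 for the weakest to 100 for the strongest fold, so that the 4 ranks rest on the same regions. Since the genes were proposed with these lists in view, the values are a description, and 2 libraries against 2 could in any case not give an exact permutation p below 0.333.

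**Figure D1:**
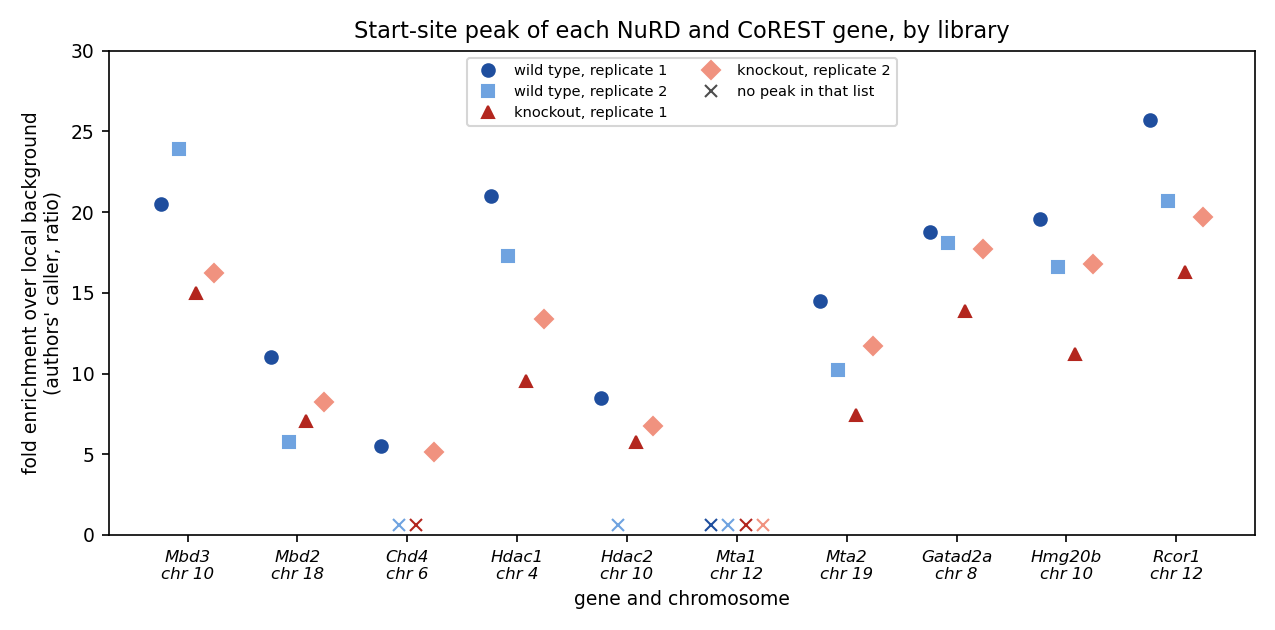
Fold enrichment at the start-site peak (vertical axis, ratio over local background) of the 10 genes (horizontal axis) in each of the 4 libraries, 1 point per library, with a cross where a list has no peak. Rcor1 has the highest single value, 25.7 in wild-type replicate 1, and Mta1 has no peak in any list.

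The start site of Mbd3 was among the strongest in each library, and its rank did not separate the genotypes. Mbd3 (gene 17192) lies on chromosome 10 at 80392539-80399531 on the minus strand, and its start-site region covered 80399501-80399858, across the start, with summits at positions -164 to -134 from it, within the printed promoter. Its fold was 20.5 and 23.9 in wild-type and 15.0 and 16.2 in knockout cells. Within the lists as deposited it was peak number 1430 and 206 by fold in wild-type and 505 and 1217 in knockout cells. Among common regions it ranked at percentiles 87.2 and 98.2 in wild-type and 95.5 and 89.0 in knockout cells, a mean of 92.7 ± 7.78 against 92.2 ± 4.61 (SD, n = 2 each). Both knockout values thus fell between the 2 wild-type values. A second, weak region inside the gene, 566 bases from the start, was also open in all 4 libraries, with folds of 5.49, 6.97, 5.61 and 5.46.

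The authors' deposited table nevertheless lists 80399495-80399894, at the Mbd3 start, as enriched in wild-type cells. With common regions ranked by the caller's −log10 q, a measure of evidence and not of enrichment, Mbd3 lay at 98.7 and 99.1 in wild-type and at 97.4 and 96.4 in knockout cells. Both knockout values were then below both wild-type values, by 1.99 points on average. On chromosome 10 both knockout ranks were lower in 41.6% and higher in 12.8% of 562 common regions by −log10 q, against 25.0% and 22.7% over all chromosomes. By fold they were lower in 23.0% and higher in 17.1%. Among the 297 common start-site regions of chromosome 10 they were lower in 49.5% and higher in 6.4% by −log10 q, and lower in 23.2% and higher in 10.8% by fold. Of the 149 common regions overlapping the deposited wild-type-enriched list, 76.5% were lower in knockout cells by −log10 q and 47.7% by fold. Chromosome 10 held 41 of the 190 deposited wild-type-enriched regions and 3 of the 189 knockout-enriched ones. Ranbp2, the gene edited in the knockout clone, is itself on chromosome 10. Whether the chromosome had a part in the Mbd3 value was not tested.

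Mbd2, the methyl-DNA-binding alternative to Mbd3, had a weaker start-site peak. It lies on chromosome 18 at 70568225-70629134, and its region at 70568135-70568389 spans the first coordinate of the gene. Its fold was 11.0 and 5.76 in wild-type and 7.04 and 8.23 in knockout cells. The ranks were 29.2 and 4.58 in wild-type and 36.2 and 30.6 in knockout cells, so both knockout values were higher. Of the 327 common regions of chromosome 18, 25.4% were higher and 19.6% lower by fold, and 29.7% and 15.0% by −log10 q. The genotypes overlapped when Mbd2 was ranked among all peaks of each list (mean difference 14.1 points) or within its chromosome (15.3). The mean difference of 16.5 points rested on wild-type replicate 2, without which it was 2.26 points. In that library the peak was among the weakest common regions, and its −log10 q was 5.99 against 32.6, 10.8 and 18.6 in wild-type replicate 1 and the knockout replicates.

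The start of Chd4, the remodelling ATPase, had a weak peak in some lists. Chd4 lies on chromosome 6 at 125095980-125130591, and a peak at 125095893-125096184 was found in wild-type replicate 1 (fold 5.53) and knockout replicate 2 (5.11), the 2 longest lists. Inside the gene, 3.35 kb from the start, a region was called in the wild-type pair (folds 10.1 and 8.63) and in no knockout list. Over all merged regions 6.52% had this pattern and 0.953% the reverse. A further intragenic region, 9.45 kb from the start, again had peaks only in the longest lists, with folds of 4.26 and 4.0.

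The deacetylase genes differed from each other. Hdac1 lies on chromosome 4 at 129516104-129542646, and its region at 129542619-129542969 covers the last coordinate of the gene. Its fold was 21.0 and 17.3 in wild-type and 9.51 and 13.4 in knockout cells. It ranked at 89.0 and 85.5 in wild-type and at 68.1 and 76.8 in knockout cells, or 87.3 ± 2.46 against 72.4 ± 6.16 (SD, n = 2 each), a mean difference of -14.8 points. Hdac1 was the only one of the 7 ranked members with both knockout values below both wild-type values, as 22.0% of common regions and 23.2% of common start-site regions had, and without knockout replicate 1 the difference was -7.65 points. On chromosome 4 as a whole the median difference between genotypes was 0.0592 points. Hdac2 lies on chromosome 10 at 36974297-37001889. Its peak at 36974213-36974398, upstream of the start, was present in wild-type replicate 1 (fold 8.49) and in both knockout libraries (5.76 and 6.72), and missing in wild-type replicate 2. The other Hdac2 region, 45.9 kb outside the gene, had peaks in the same 3 libraries.

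Of the MTA scaffold genes, Mta2 was open at its start in every library and Mta1 in none. Mta2 lies on chromosome 19 at 8941920-8952300, with its region at 8941728-8942130. Its fold was 14.5 and 10.2 in wild-type and 7.42 and 11.7 in knockout cells, and its rank 55.7 and 41.4 in wild-type and 42.3 and 64.5 in knockout cells. The genotypes overlapped, since the replicates of each differed more than the group means, 48.6 and 53.4. Mta1 lies on chromosome 12 at 113098248-113137206. Its strongest intragenic regions were 1 with a fold of 9.5 in wild-type replicate 1 alone, 8.32 kb from the start, and 1 near its 3′ end with folds of 7.65, 6.24 and 9.39 in wild-type replicate 1 and the knockout replicates.

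Gatad2a had start-site regions at both of its annotated starts. The gene lies on chromosome 8 at 69907069-69996402 on the minus strand, and the region at the outer start, 69996220-69996848, was the widest of the 10 genes (629 bp). Its fold was 18.8 and 18.1 in wild-type and 13.9 and 17.7 in knockout cells. By rank the knockout values were higher, 92.9 and 93.1 against 80.7 and 88.7, a mean difference of 8.30 points, which was 4.28 without wild-type replicate 1. By −log10 q the genotypes overlapped (96.0 and 95.6 against 95.0 and 96.9). At the inner start, 69974289-69974665, the ranks were 47.6 and 54.9 in wild-type and 68.2 and 57.6 in knockout cells, again higher in both. Of the 635 common regions of chromosome 8, 24.6% were higher and 20.5% lower by fold, and 28.8% and 19.5% by −log10 q. Gatad2a and Mbd2 were the 2 ranked members with higher knockout values at the start site, as 21.8% of common regions and 16.4% of common start-site regions had. By −log10 q, 2 members were lower (Hdac1 and Mbd3) and 1 higher (Mbd2), against 27.0% and 15.1% of common start-site regions.

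The 2 CoREST genes had strong start sites whose ranks overlapped between genotypes. Hmg20b lies on chromosome 10 at 81346046-81350943 on the minus strand, with its region at 81350342-81350744. Its fold was 19.6 and 16.6 in wild-type and 11.2 and 16.8 in knockout cells, and its rank 83.7 and 82.8 in wild-type and 81.1 and 90.8 in knockout cells. The knockout replicates lay on either side of the wild-type pair. The authors' deposited table lists 81350398-81350797, at this start site, as enriched in wild-type cells. By −log10 q the ranks were 97.0 and 94.9 in wild-type and 88.2 and 96.1 in knockout cells, which also overlapped, and the mean difference turned from 2.73 points by fold to -3.82 by −log10 q. Rcor1 lies on chromosome 12 at 111039367-111115902, with its region at 111039048-111039318, upstream of the start. It had the highest mean rank of the 7 genes, at 97.7 and 94.9 in wild-type and 96.9 and 96.6 in knockout cells, with folds of 25.7, 20.7, 16.3 and 19.7 in the same order. Its summits lay within 6 bases of each other in the 4 libraries, at positions -152 to -146 from the start, while those of Hmg20b were spread over 117 bases.

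**Figure D2:**
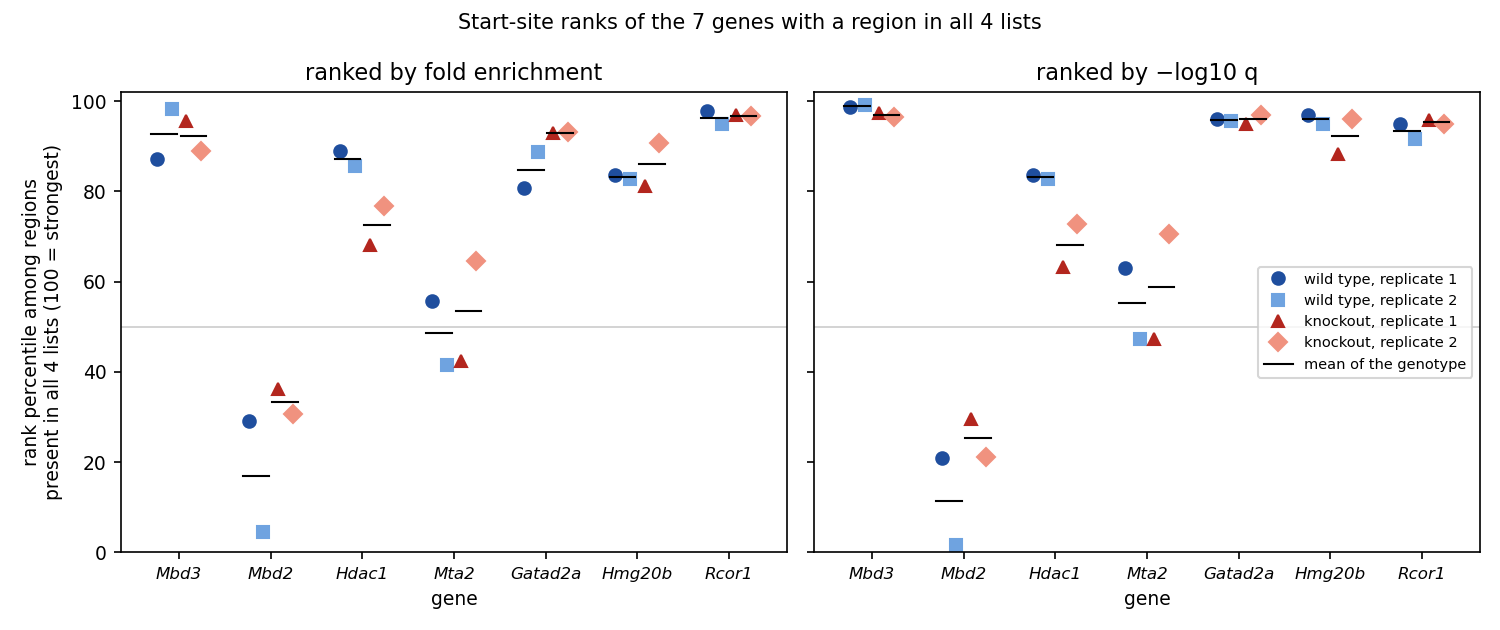
Rank percentile (vertical axis, 100 for the strongest) among the 10977 regions present in all 4 lists, for the start-site region of the 7 genes with such a region (horizontal axis), by fold on the left and by −log10 q on the right. Points are libraries and bars are means of 2; Hdac1 lies lower and Mbd2 higher in both knockout libraries in both panels.

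The genes whose start sites had the most similar ranks over the 4 libraries, out of 5975 compared by the sum of absolute differences, were Tiprl (6.07 points), Adipor1 (6.47) and Rrbp1 (6.91) for Mbd3. For Hmg20b they were Sh3bp5 (3.98), Ap1s2 (4.81) and Nfyb (5.08), a subunit gene of NF-Y. Of these, Nfyb lies on chromosome 10, as Hmg20b does.

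The windows around the 10 genes held 71 merged regions, of which 34 (47.9%) were open in all 4 libraries, against 28.0% of all merged regions. Away from the members' own start sites it was 25 of 60 (41.7%). The windows lie around genes, while the 28.0% covers regions anywhere. The number of regions per gene ran from 2 at Hdac1 and Hdac2 to 16 at Mta2. Only 16 regions had their strongest summit inside the 10 genes (17 with a summit of any library, the added one being the Hdac2 start-site region). A member was the gene with the nearest start for 20 of the 71 regions, so most lay nearest the start of another gene. Only the wild-type pair shared 5 of the regions (7.04%, against 6.52% overall), and only the knockout pair shared 0 (0.953% overall). The 5 had as nearest starts Mex3d (1.76 kb), Chd4 (3.35 kb), Rom1 (0.102 kb), Cilp2 (12.5 kb) and Gatad2a (34.6 kb). Another 14 regions (19.7%, against 28.2% overall) were in wild-type replicate 1 alone, the longest list. At the edge of the window, the outermost region inside lay 48.7 kb from Rcor1, near Traf3 (folds 14.4, 8.30, 5.31 and 7.37), and the nearest one outside 51.0 kb from Hmg20b, near Smim24 (10.6, 7.53, 6.52 and 7.79).

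**Figure D3:**
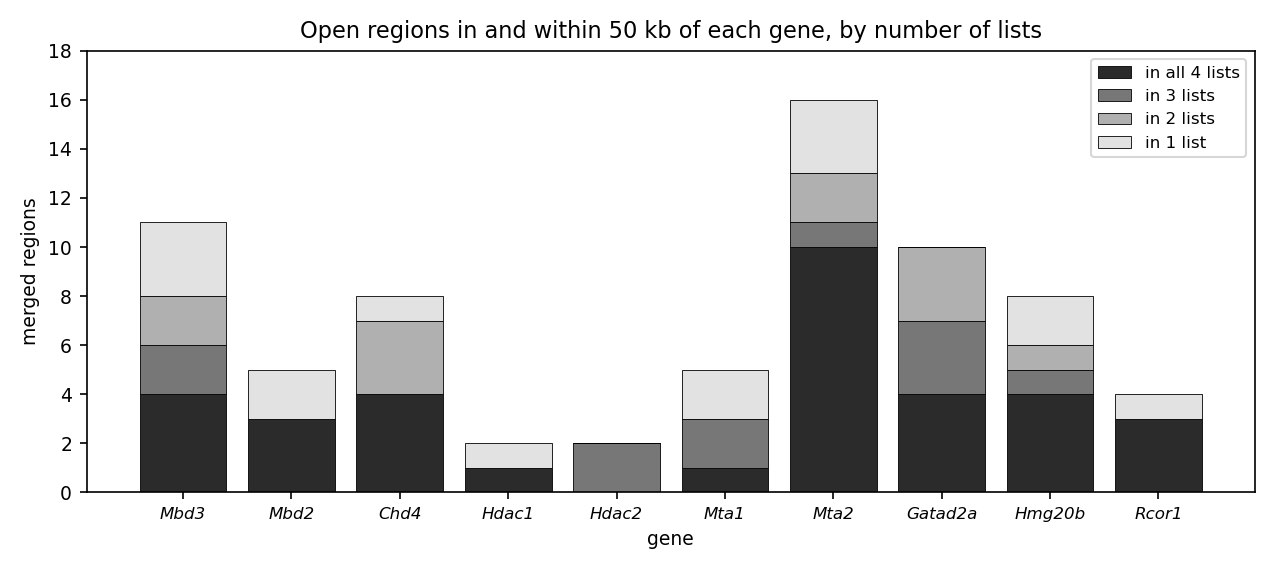
Number of merged regions (vertical axis) in the span of each gene (horizontal axis) and within 50 kb of it, divided by the number of lists with a peak. Mta2 has 16 regions, 10 of them in all 4 lists, while Hdac2 has 2 and neither of them is in all 4.

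Among the 34 regions open in all libraries, 7 (20.6%) ranked lower and 7 (20.6%) higher by fold in both knockout libraries, against 22.0% and 21.8% of all common regions. These shares are near the background. By −log10 q, 11 (32.4%) were lower and 5 (14.7%) higher, against 25.0% and 22.7%. Of those 11, 4 lay among the 8 such regions around the chromosome 10 genes and 5 among the 10 around Mta2 on chromosome 19, where 38.0% of common regions were lower by −log10 q and 25.3% by fold.

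Of the 7 lower by fold, 5 lay within 1 kb of the start of a neighbouring gene, 3 of them in the Mta2 window. Start sites are common among such regions: 5540 of all 10977 common regions were start-site regions. At Mau2, a cohesin-loading factor 46.3 kb from Gatad2a, the ranks were 65.7 and 62.4 in wild-type and 32.7 and 31.3 in knockout cells. At Tut1, a terminal uridylyltransferase 1.5 kb beyond Mta2, they were 70.3 and 57.8 against 37.5 and 31.2. At B3gat3, a glycosaminoglycan-linker enzyme 21.6 kb from Mta2, they were 93.7 and 95.9 against 82.0 and 78.8. In these 3 regions the knockout values lay clearly apart from the wild-type ones, while at Ganab, a glucosidase subunit gene 43.9 kb from Mta2, they were nearly adjacent, at 88.6 and 82.8 against 74.1 and 81.8. At Tcf3, which encodes E-protein transcription factors, 34.5 kb from Mbd3, they were 80.6 and 80.2 against 61.5 and 51.7. The authors' deposited table lists the Tcf3 region as enriched in wild-type cells at 80433840-80434239. Away from the members' own start sites, 6 of 25 regions open in all libraries were lower (24.0%) and 4 higher (16.0%) by fold. Over all common regions the shares were 22.0% and 21.8%. The higher ones included a region 1.99 kb from the start of Adamtsl5 in the Mbd3 window, at 32.8 and 36.7 against 62.6 and 49.5. A region 0.12 kb from the start of Gapdh in the Chd4 window lay at 38.7 and 46.9 against 59.5 and 55.4. In the Mta2 window, a region 8.46 kb from the start of Ahnak lay at 48.8 and 59.9 against 70.2 and 61.6. A weak region 4.58 kb from the same start lay at 5.05 and 3.69 against 8.5 and 5.17. Mau2, Tut1, B3gat3, Ganab, Adamtsl5, Gapdh and Ahnak were picked after their values were seen. The best-ranked regions away from the members' own starts, at Fzr1, an activator of the anaphase-promoting complex, in the Hmg20b window and at Tedc1 in the Mta1 window, had mean ranks of 97.7 and 95.4 and overlapped between genotypes by fold. By −log10 q the Fzr1 region was lower in both knockout libraries, at 99.0 and 98.9 in wild-type against 97.0 and 98.4, and the Tedc1 region overlapped.

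The windows held 3 deposited wild-type-enriched regions, those at Mbd3, Tcf3 and Hmg20b, all on chromosome 10, and 0 knockout-enriched ones. Of their 56 regions present in at least 2 lists, 5.36% thus overlapped the wild-type-enriched list, against 0.835% over all chromosomes and 3.53% on chromosome 10. For the knockout-enriched list the shares were 0.822% and 0.252%. The members were proposed because Mbd3 and Hmg20b stood on that list, so nothing is read from this share. Of the 3 regions, only Tcf3 was lower by fold rank in both knockout libraries. By −log10 q, Tcf3 and Mbd3 were.

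**Figure D4:**
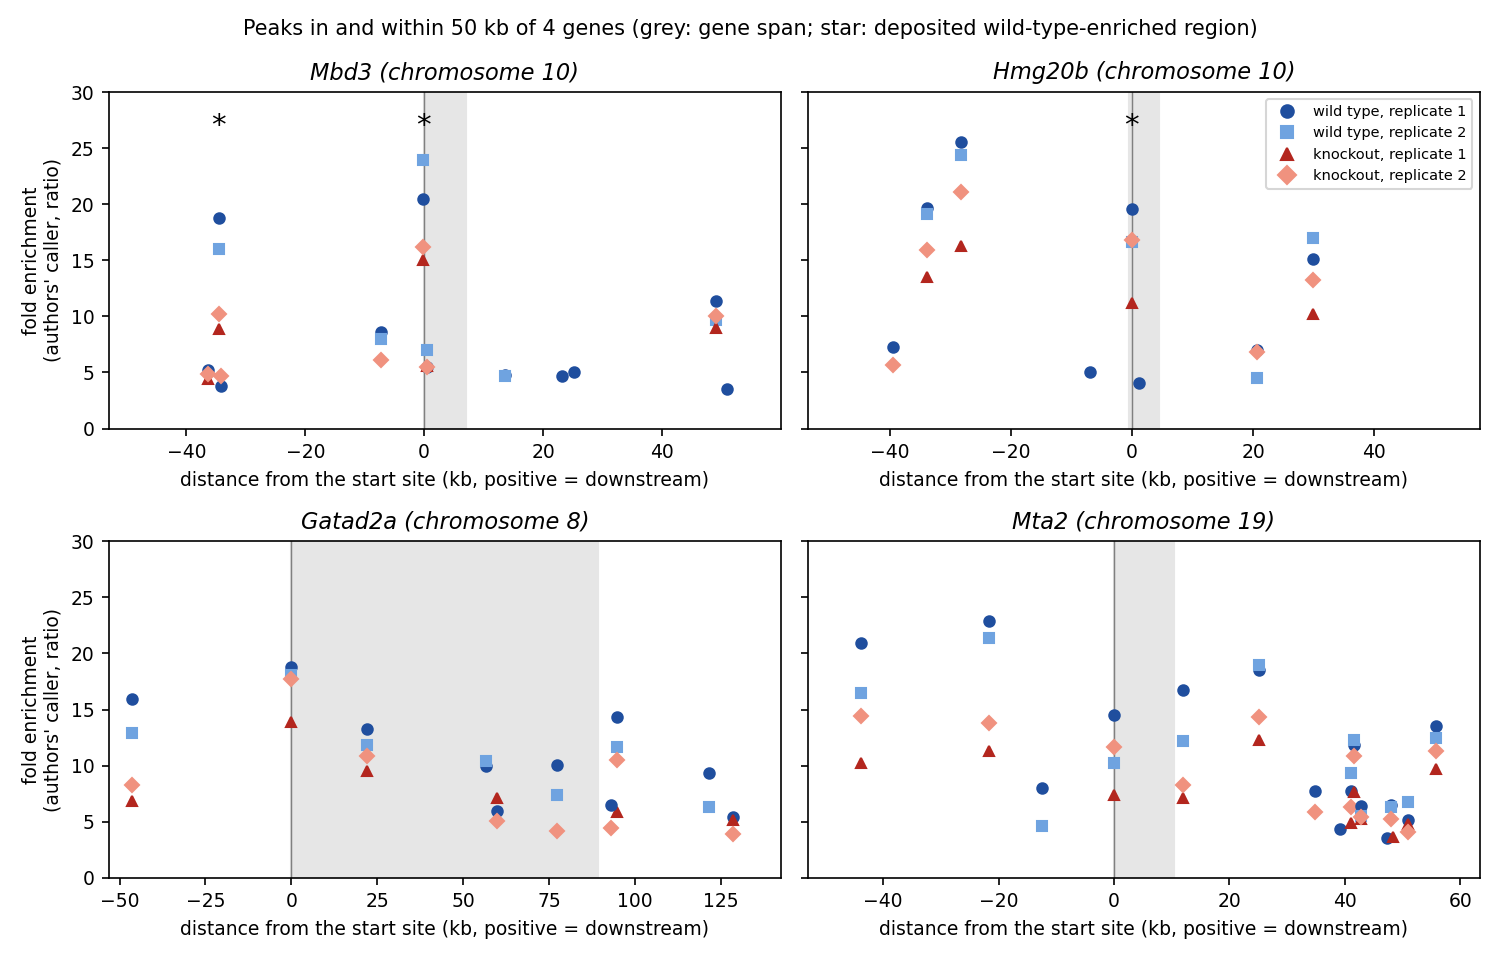
Fold enrichment (vertical axis, ratio) of the peaks in and within 50 kb of Mbd3, Hmg20b, Gatad2a and Mta2 against their distance from the start site (horizontal axis, kb along the gene's own direction), 1 point per library. Grey marks the gene span and stars the 3 deposited wild-type-enriched regions; all 3 lie in the 2 chromosome 10 windows.

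Of 17 other NuRD and CoREST genes, 11 and 10 had a start-site peak in the wild-type and 8 and 10 in the knockout libraries. Among the 17, 8 had one in all 4 and 6 in none, against 27.4% and 55.3% of all protein-coding genes. The 6 with none were Chd3, Chd5 and Cdk2ap1 for NuRD and Rcor3, Phf21a and Zfp217 for CoREST. None had a deposited differential region within 50 kb or a start-site peak in both libraries of 1 genotype only. Kdm1a, the CoREST demethylase, was open in 3 libraries and missing in knockout replicate 1. Of the 8 ranked genes, Mta3 and Rbbp7 were higher by fold in both knockout libraries and Zmym2 and Zmym3 lower, which is 2 in each direction, against 16.4% higher and 23.2% lower of common start-site regions. By −log10 q, 2 were higher and 3 lower, against 15.1% and 27.0%. For Mta3, another MTA scaffold, on chromosome 17, the promoter table gives no start. The peak lay 290 bases beyond the last coordinate of the gene span, so it may not be at the start. Mta3 is still counted above as having a start-site peak and as 1 of the 2 higher genes. It ranked at 3.45 and 8.70 in wild-type and at 25.8 and 36.8 in knockout cells. Rbbp7, a histone-binding subunit gene on chromosome X, ranked at 66.5 and 58.8 against 91.3 and 82.2. Zmym2, a zinc-finger partner of CoREST, ranked at 91.4 and 92.3 against 63.6 and 88.5, and its mean difference of -15.8 points was -2.45 without knockout replicate 1. Zmym3 ranked at 8.74 and 24.0 against 8.23 and 7.27, with low folds of 7.63, 8.36, 5.24 and 5.84. Its genotypes overlapped without knockout replicate 1 and when ranked among start-site and gene-end regions.

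The SIN3 complex, which also holds Hdac1 and Hdac2, had 10 of 12 genes open at the start in all 4 libraries. CTCF with cohesin had 6 of 11, and the share over all protein-coding genes was 27.4%. Of the 10 SIN3 genes, 0 ranked lower and 2 higher in knockout cells by fold. Of the 6 CTCF and cohesin genes, 2 ranked lower and 0 higher by fold. The lower ones include Mau2, whose region was already given for the Gatad2a window. By −log10 q the counts were 3 lower and 2 higher for SIN3, and 3 lower and 0 higher for CTCF and cohesin. Among common start-site regions 23.2% were lower and 16.4% higher by fold, and 27.0% and 15.1% by −log10 q. The median difference in rank by fold, knockout minus wild type, was 2.73 points over the 7 NuRD and CoREST members, -0.61 over the other genes of the complexes, 4.53 for SIN3 and 1.27 for CTCF and cohesin, against -1.27 over 5540 common start-site regions. By −log10 q the medians were 0.105, -3.36, 0.724 and -6.82, against -1.92, so that of CTCF and cohesin turned sign. No test was made of these medians.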

How the data were processed

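ATAC-seq was available for 2 wild-type and 2 Ranbp2 knockout libraries of 10T1/2 cells. Per the submitters' processing notes the build was mm10, and MACS2, DiffBind 2.2.12, DESeq2, Bowtie2, cutadapt and deepTools are named without roles. The authors deposited 1 peak list per library, called separately, with a fold (ratio over local background), −log10 p, −log10 q and a score, which is 10 times the −log10 q without decimals for 99.96% to 99.97% of peaks. These values served only to describe and rank peaks inside each list. For differential regions the authors' 2 deposited tables give positions, with no threshold stated.

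Peaks overlapping by at least 1 bp were joined, and each library's highest fold in a region was ranked among the regions present in all 4 lists. Starts came from the RefSeq promoter table (GRCm38.p6) for 17491 genes and from both span ends for 4392. Where promoter windows of opposite strands overlapped, all 1841 pairs were reverse complements. Gene lists, motifs and the rule for named genes were chosen with earlier results of these data known. The rule took all members, listed complex genes with a deposited region nearby, a peak in 1 genotype only or the largest rank differences, and neighbours at deposited or genotype-only regions or with the highest ranks. Mau2, Tut1, B3gat3, Ganab, Adamtsl5, Gapdh and Ahnak fall outside it. Joining and ranking were tested on simulated lists of equal length, with a peak in every list at each region. Since the lists here differ in length, that checked the code alone and not the calls. Alternatives covered list length, thresholds, windows, ranking measure and set, overlap and single libraries. Python 3.11.15, numpy 2.4.6 and pandas 2.3.3 were used.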

Additional observations from a re-analysis of the deposited data

How the results depend on the processing

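Over 10 alternatives Hdac1 stayed lower in all knockout libraries used (-18.9 to -7.65 points), and Gatad2a was higher in 9 and overlapped in 1. Mbd2 was higher in 7 and overlapped in 2 of the 9 that could be computed. Hmg20b, Mbd3, Mta2 and Rcor1 overlapped in 7 or 8 of 10, with differences on both sides of 0. Hdac1, Gatad2a and Mbd2, the members called with all libraries, kept their sign. Mbd3, Hmg20b and Rcor1 were called in opposite directions depending on the library left out: Mbd3 -5.92 without wild-type replicate 1 and 4.49 without wild-type replicate 2, Hmg20b 5.61 without knockout replicate 1 and -2.08 without knockout replicate 2, and Rcor1 1.84 and -0.812 without wild-type replicates 1 and 2. Members higher in knockout numbered 1 instead of 2 by −log10 q, among all peaks of each list, within the same chromosome and with lists of equal length. With equal lists, ranked among all peaks of each shortened list, Mbd2 was not ranked, so its call was lost and did not change. Members lower in knockout numbered 2 instead of 1 by −log10 q. With 1 library left out, which alone makes separation easier, the member counts were 2 to 4 higher and 1 to 2 lower. For the other complex genes, 1 instead of 2 was higher with equal lists, and 1 instead of 2 lower with equal lists and among start-site and gene-end regions. With equal lists Mta3 and Zmym3 were not ranked. With 1 library left out 3 to 5 of the other complex genes were higher and 2 to 4 lower. The regions around the members numbered 17 in the gene spans alone (a summit of any library), 31 within 10 kb and 124 within 100 kb instead of 71, with 4, 12 and 53 instead of 34 in all lists. Wild-type-only regions were 2 in the spans, 3 within 10 kb and 3 with equal lists instead of 5, and 5 to 19 with 1 library left out, the highest without wild-type replicate 2 and 9 without knockout replicate 2. Knockout-only regions were 2 instead of 0 with equal lists, and 0 to 7 with 1 library left out, the highest without wild-type replicate 1. Deposited wild-type-enriched regions numbered 1 instead of 3 in the spans alone. Start-site peak counts stayed within 1.5 times their values in every alternative run. The cause of these changes was not tested. No paired analysis was possible because no result comes from a test and the replicate numbers name no shared culture or day.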
